A study of Mus musculus with 18 samples.

Results

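The Hox genes were followed through 18 RNA-Seq libraries of colon crypt epithelial cells from C57BL/6 mice. They were taken as every symbol of the count table made of Hox, a cluster letter from a to d and a paralog number, which gave 39 of 24047 genes. The rule uses names only. Of the 39, 35 had a count in at least 1 library and 23 reached a mean of 10 normalized counts, a normalized count being the count divided by the size factor of its library. The mice were WT or carried the label Ern2-/-, a deletion of the gene for the epithelial ER stress sensor ERN2 in every tissue. GF mice were germ free, CONV mice were conventionally raised (SPF), and COLONIZED mice were GF mice gavaged with cecal homogenate from WT SPF donors and examined 14 days later. Each genotype label and microbial state made a group of 3 libraries, 6 groups in all. The study asked how the colon epithelium responds to gut microbes and whether ERN2 is needed for it. The age of the mice was not stated in the labels, which name the tissue as colon and give no segment. Per the study's methods, COLONIZED mice gave crypts from the distal colon that was left after a piece had gone to histology, and no segment is stated there for the GF and CONV mice. The study presents its CONV comparison under distal colon and describes, in its supplement, epithelial RNA-Seq of both proximal and distal colon, and the labels do not say which segment the CONV libraries came from. Any difference in the stretch of colon taken therefore cannot be told apart from the microbial state.

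Library totals ran from 5865619 to 23154481 counts and were lowest in CONV-Ern2-/- replicates 3 and 2 (5865619 and 7084267) and CONV-WT replicate 3 (8198204). The targeted gene went against some labels. Ern2 was at 1909 to 3100 normalized counts in the WT libraries, at 2877 and 3336 in the libraries labelled GF-Ern2-/- replicates 1 and 3, at 2567 in that labelled COLONIZED-Ern2-/- replicate 1, and at 386 to 1885 in the other libraries labelled Ern2-/-. The deleted part of Ern2 was not given, so these reads may fall outside it, and genotype names below are names of labels. Libraries with Y-linked counts numbered 0 of 3 in GF-WT, 2 in COLONIZED-WT, 1 in CONV-WT, 2 in GF-Ern2-/-, 2 in COLONIZED-Ern2-/- and 3 in CONV-Ern2-/-, so sex was not balanced. GF-Ern2-/- replicate 2 stood apart with 6626 normalized counts of the small-intestinal gene Apoa1, against at most 21.5 in 15 of the other libraries, 817 in GF-Ern2-/- replicate 3 and 414 in GF-WT replicate 3. CONV-WT replicate 3 held 8948 normalized counts of the epithelial gene Epcam, the lowest of all libraries.

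Hox genes encode homeodomain transcription factors that tell cells where they lie along the body axis. They sit in clusters in which order along the chromosome matches the order of expression from front to back, and genes with the same number in different clusters are paralogs that descend from 1 ancestral gene. Genes with low numbers act in anterior parts, and genes with high numbers in the hindgut, genitalia and limb ends. The gut epithelium keeps part of this pattern in the adult, and HOXB13 is a known mark of the distal colon and rectum as well as of the prostate.

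The clusters differed greatly in level. HoxB genes (chromosome 11 in mm10, the build named in the submitters' processing notes) gave 73.7% of all Hox counts over the 18 libraries, with a range of 57.7 to 82.1% per library. HoxA genes (chromosome 6) gave 23.2% (12.6 to 41.3%) and HoxD genes (chromosome 2) 3.04% (0.885 to 5.24%). HoxC genes (chromosome 15) were close to silent, with 15 counts in all 18 libraries together and 4 of 9 members (Hoxc10 to Hoxc13) at 0 throughout. A mean of 10 normalized counts was reached by 10 of 11 HoxA, 9 of 10 HoxB, 0 of 9 HoxC and 4 of 9 HoxD genes. The 12 members with a count but a lower mean reached at most 27.1 normalized counts in any library. As CPM (each count relative to its library total) per kilobase of exon, Hoxb13 was highest with a mean of 95.4, followed by Hoxb9 (45.8), Hoxb6 (17.0), Hoxb7 (13.9) and Hoxa7 (11.0), while Hoxd3 stood at 0.710. All Hox genes together gave 334 to 857 CPM.

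The make-up of the Hox counts shifted with microbial state. Paralogs 10 to 13, the posterior genes, made up 61.9 ± 10.1% (SD, n = 3) of Hox counts in GF-WT, against 42.4 ± 7.71% in COLONIZED-WT and a wide 31.2 ± 18.3% in CONV-WT. Under the Ern2-/- label their share was 62.0 ± 10.4% in GF, 34.6 ± 14.8% in COLONIZED and 12.6 ± 13.4% in CONV mice. Library by library, GF-WT had posterior shares of 72.4, 61.1 and 52.3%, COLONIZED-WT of 39.3, 51.1 and 36.7%, CONV-WT of 51.0, 27.8 and 14.7%. The share was 72.0, 63.0 and 51.2% in GF-Ern2-/-, 50.9, 22.2 and 30.8% in COLONIZED-Ern2-/- and 5.82, 28.0 and 3.92% in CONV-Ern2-/-. All GF libraries were thus above all others, with the closest values at 51.2% (GF-Ern2-/- replicate 3) and 51.1% (COLONIZED-WT replicate 2), while COLONIZED and CONV libraries overlapped. This separation was narrow and did not hold under other definitions of the share. Counting from paralog 9, CONV-WT replicate 1 (75.7%) lay above GF-Ern2-/- replicate 3 (74.1%). Without Hoxb13 it lay at 25.4%, above GF-WT replicates 2 and 3 (23.9 and 20.6%) and GF-Ern2-/- replicate 3 (18.8%). These shares rest on 3269 to 17457 Hox counts per library, and no 95% Wilson interval was wider than 3.26 percentage points, which covers counting error only. The share of paralogs 6 to 9 went from 28.6% in GF-WT to 42.1% in COLONIZED-WT and 47.0% in CONV-WT, and from 29.9% in GF-Ern2-/- to 47.6 and 61.2%. Paralogs 1 to 5 went from 9.45% to 15.5 and 21.8% in WT and from 8.03% to 17.8 and 26.2% in the libraries labelled Ern2-/-. The classes divide the same total, so a lower posterior share by itself raises the others. Mean Hox CPM was 729, 621 and 545 in GF-WT, COLONIZED-WT and CONV-WT, and 690, 629 and 476 under the Ern2-/- label. These shares were described without a test.

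**Figure D1:**
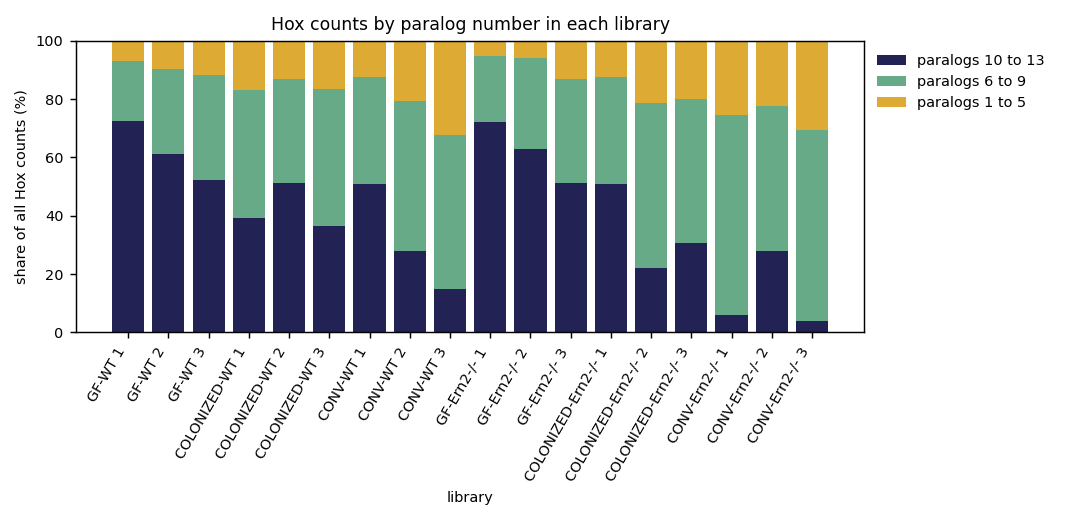
Share of all Hox counts (%) from paralogs 1 to 5, 6 to 9 and 10 to 13 in each of the 18 libraries, by group and replicate. Paralogs 10 to 13 take 51.2 to 72.4% in the GF libraries and 3.92 to 51.1% in all others.

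Genes of paralog number 13 were highest in GF mice. In WT mice Hoxb13 counted 7789.7, 5637 and 3676 normalized counts when GF, 2834, 4381 and 2458 when COLONIZED and 2669.7, 1430.2 and 588 when CONV (replicates 1 to 3). Hoxb13 under the Ern2-/- label counted 7776, 3764 and 4497 when GF, 4073, 1377 and 2305 when COLONIZED and 118, 1542 and 80.0 when CONV. All GF libraries lay above all CONV libraries, and the highest value was 97.4 times the lowest, the widest range of any member without a value of 0. Among the CONV-Ern2-/- libraries replicate 2 stood far above the others. Hoxb13 fell by 1.88 from GF-WT to CONV-WT (log2, SE 0.54, adjusted p = 0.00582, Wald test of DESeq2). It did not pass the threshold of 0.01 in COLONIZED-WT against GF-WT (log2 -0.81, adjusted p = 0.0177), in COLONIZED-Ern2-/- against GF-Ern2-/- (log2 -1.05, adjusted p = 0.0605) or in CONV-Ern2-/- against GF-Ern2-/- (log2 -3.22, SE 1.19, adjusted p = 0.077). The last value turned on CONV-Ern2-/- replicate 2, without which Hoxb13 was called at log2 -5.74 (adjusted p = 1.60e-40). That library was singled out after its Hoxb13 value was seen, so this fit adds no separate evidence of a fall.

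Hoxd13, which acts with Hoxa13 in limb and hindgut endings, showed the sharpest contrast. Hoxd13 counted 74.5, 291 and 133 when GF, 6.42, 25.0 and 16.7 when COLONIZED and 1.89, 0 and 0 when CONV in WT mice. Hoxd13 under the Ern2-/- label counted 319, 269.7 and 43.8 when GF, 95.4, 4.50 and 12.0 when COLONIZED and 0, 0 and 0 when CONV. Every GF-WT library lay above every COLONIZED-WT and CONV-WT library, and the CONV libraries held 2 counts in WT and 0 in those labelled Ern2-/-. Hoxd13 fell by 3.37 in COLONIZED-WT (log2, SE 0.52, adjusted p = 1.05e-08). DESeq2 also called it lower in CONV-WT than in GF-WT (adjusted p = 4.33e-09, Wald test) and in CONV-Ern2-/- than in GF-Ern2-/- (adjusted p = 5.39e-06). With counts pooled over each group, the ratio of CPM, GF-WT over CONV-WT, was 214, with a counting interval of 58.9 to 1768. Hoxd13 was at least 135-fold lower in CONV-Ern2-/- than in GF-Ern2-/-, computed with 3 counts over the group as the floor. These pooled ratios leave out the spread between libraries. Between COLONIZED-Ern2-/- and GF-Ern2-/- the groups overlapped, with COLONIZED-Ern2-/- replicate 1 above GF-Ern2-/- replicate 3, and the difference did not pass (log2 -2.50, SE 1.32, adjusted p = 0.219).

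Hoxa13 followed over a smaller range. Hoxa13 counted 567, 426 and 485 when GF, 192, 267 and 148 when COLONIZED and 365, 152 and 206 when CONV in WT mice. Hoxa13 under the Ern2-/- label counted 580.2, 208 and 509.7 when GF, 269, 128 and 105 when COLONIZED and 50.1, 282 and 57.9 when CONV. In WT the GF libraries lay above all others, and in the libraries labelled Ern2-/- replicate 2 of the GF group overlapped the others. Hoxa13 fell by 1.27 in COLONIZED-WT (log2, SE 0.23, adjusted p = 1.97e-06). The other comparisons against GF did not pass, at log2 -1.04 in CONV-WT (adjusted p = 0.0324), -1.37 in COLONIZED-Ern2-/- (adjusted p = 0.0222) and -1.75 in CONV-Ern2-/- (adjusted p = 0.0529). Without CONV-Ern2-/- replicate 2, singled out after its high value was seen, the last was called at log2 -3.02 (adjusted p = 4.12e-07).

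**Figure D2:**
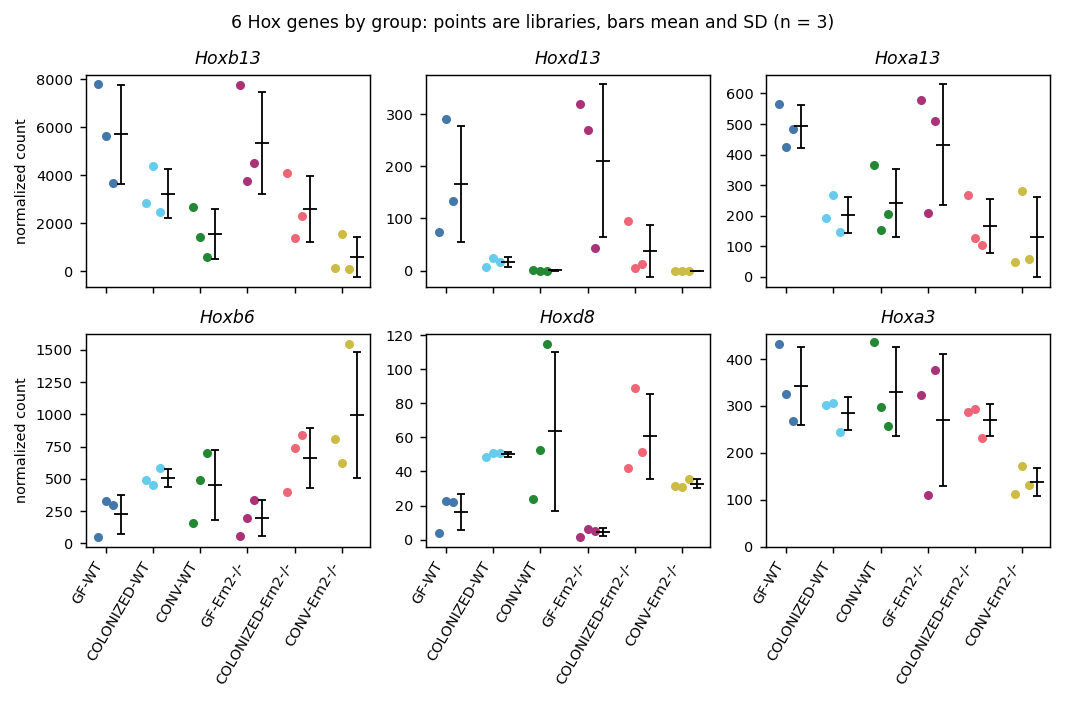
Normalized counts of 6 Hox genes in each library (points) with the mean and SD of each group (bars, n = 3), on linear axes. Hoxb13, Hoxd13 and Hoxa13 have their highest group means in GF mice, Hoxb6 and Hoxd8 their lowest, and Hoxa3 is lowest in CONV-Ern2-/-.

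Among paralogs 10 to 12, Hoxd11 and Hoxa11 moved in different ways. In WT mice Hoxd11, a neighbour of Hoxd13, counted 1.54, 16.8 and 16.0 when GF, 4.28, 0 and 1.59 when COLONIZED and 0, 0 and 0 when CONV. Hoxd11 under the Ern2-/- label counted 26.8, 27.1 and 3.13 when GF, 5.70, 0 and 1.00 when COLONIZED and 0, 0 and 0 when CONV. It was at 0 in all 6 CONV libraries. DESeq2 called it lower in CONV-WT than in GF-WT (adjusted p = 0.00801, Wald test) and in CONV-Ern2-/- than in GF-Ern2-/- (adjusted p = 0.00743). From counts pooled over each group, with the same floor of 3 counts per group, it was at least 9.91-fold and 12.1-fold lower. Pooling leaves out the spread between libraries, and GF-WT replicate 1 held only 2 counts. Hoxa11 counted 49.2, 48.3 and 50.7 when GF, 102, 40.4 and 42.1 when COLONIZED and 146, 102 and 91.3 when CONV in WT mice. Hoxa11 under the Ern2-/- label counted 40.3, 17.0 and 61.5 when GF, 74.1, 19.8 and 27.1 when COLONIZED and 36.5, 55.5 and 27.6 when CONV. All CONV-WT libraries lay above all GF-WT and all CONV-Ern2-/- libraries. Hoxa11 rose from GF-WT to CONV-WT by 1.20 (log2, SE 0.29, adjusted p = 8.42e-04) and was the only called member of paralogs 10 to 13 that was higher than in GF. It shares 568 of its 2287 exon bases in GENCODE vM21 with the antisense RNA Hoxa11os, which stood at 288 to 3529 normalized counts. The strand setting of the counting was not given in the sources used here, so the assignment of reads in the shared bases is uncertain. Hoxa10, the other member of this class above a mean of 10, had group means of 587 ± 127 (SD) in GF-WT, 405 ± 76.4 in COLONIZED-WT, 573 ± 216 in CONV-WT, 562 ± 130.2 in GF-Ern2-/-, 365 ± 161 in COLONIZED-Ern2-/- and 260.0 ± 199.88 in CONV-Ern2-/-, and was not called.

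Within HoxB the posterior and the other genes varied in opposite senses around a flat Hoxb9. Hoxb9 ran from 1336 to 2196 normalized counts over all 18 libraries, a 1.64-fold range, the narrowest of the 23 members. Its group means were 1688 ± 191, 1763 ± 154, 1682 ± 286, 1718 ± 344, 1981 ± 227 and 1836 ± 309 in the order GF, COLONIZED and CONV, first for WT and then for the Ern2-/- label (SD, n = 3). The sum of the 7 genes Hoxb2 to Hoxb8 ran from 200 to 5047, a 25.3-fold range. The sum was 920 ± 619 in GF-WT, 1850 ± 248 in COLONIZED-WT and 2141 ± 1666 in CONV-WT (SD, n = 3 each). In the libraries labelled Ern2-/- it was 754 ± 531 in GF, 2266 ± 802 in COLONIZED and 3387 ± 1444 in CONV mice. The lowest sums were in GF-Ern2-/- replicate 1 (200), GF-WT replicate 1 (206) and CONV-WT replicate 1 (473), each far below the other 2 libraries of its group, and the highest in CONV-Ern2-/- replicate 3 (5047) and CONV-WT replicate 3 (3806).

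**Figure D3:**
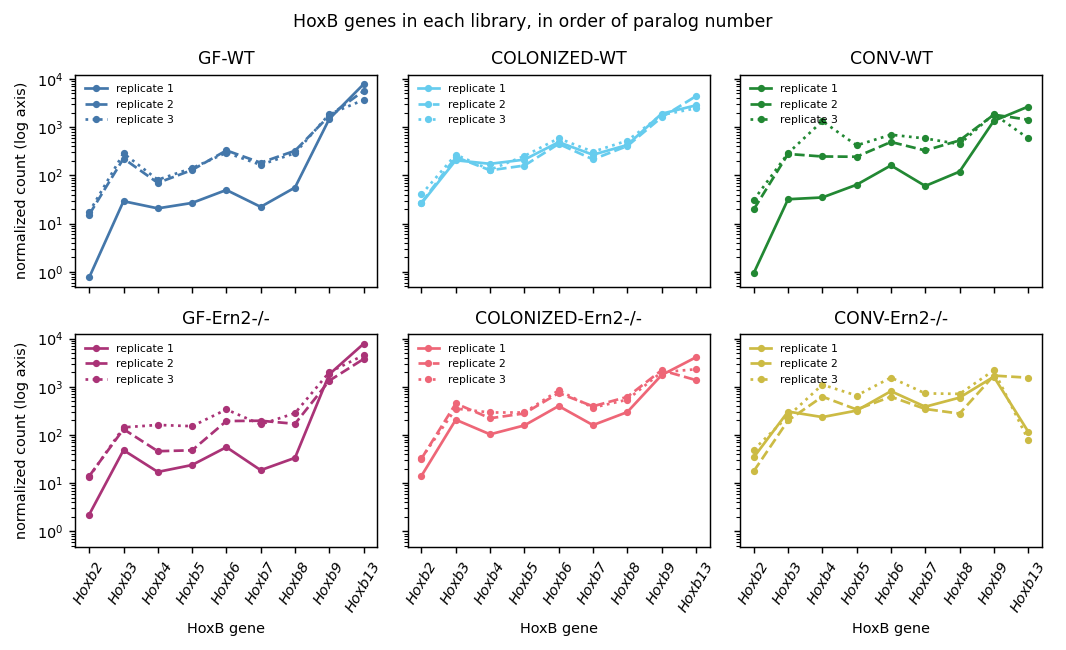
Normalized counts (log axis) of the 9 HoxB genes with a mean of at least 10, in order of paralog number, with 1 line per library and 1 panel per group. Lines meet at Hoxb9 and spread at Hoxb13 and at Hoxb2 to Hoxb8, where replicate 1 of GF-WT, CONV-WT, GF-Ern2-/- and COLONIZED-Ern2-/- has the lowest sum in its panel.

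Of paralogs 6 to 8, Hoxb6 and Hoxd8 were called. In WT mice Hoxb6, a gene of the trunk region, counted 49.9, 329.9 and 296 when GF, 489.9, 450.3 and 588 when COLONIZED and 161, 494 and 698 when CONV. Hoxb6 under the Ern2-/- label counted 55.9, 195 and 339 when GF, 399, 741 and 841 when COLONIZED and 810.4, 622 and 1548 when CONV. All COLONIZED and CONV libraries labelled Ern2-/- lay above all GF libraries of that label, whereas CONV-WT overlapped GF-WT. Hoxb6 rose in CONV-Ern2-/- by 2.33 (log2, SE 0.54, adjusted p = 7.72e-04). It fell just short in COLONIZED-Ern2-/- (log2 1.75, adjusted p = 0.0103) and did not pass in COLONIZED-WT (log2 1.18, adjusted p = 0.228) or CONV-WT (log2 0.99, adjusted p = 0.371). Hoxd8 counted 3.84, 22.4 and 22.2 when GF, 48.5, 50.7 and 50.8 when COLONIZED and 23.6, 52.3 and 115 when CONV in WT mice. Hoxd8 under the Ern2-/- label counted 1.49, 6.02 and 5.21 when GF, 42.0, 89.1 and 51.2 when COLONIZED and 31.3, 31.1 and 35.9 when CONV. Every GF library was below every COLONIZED and CONV library of its own genotype label. Hoxd8 rose by 1.63 in COLONIZED-WT (log2, SE 0.52, adjusted p = 0.00927), by 3.89 in COLONIZED-Ern2-/- (SE 0.63, adjusted p = 1.18e-07) and by 2.99 in CONV-Ern2-/- (SE 0.73, adjusted p = 0.00175). Hoxa6 gave a different picture from Hoxb6. Hoxa6 counted 65.3, 28.7 and 18.7 when GF, 20.0, 19.1 and 18.3 when COLONIZED and 41.5, 14.8 and 11.0 when CONV in WT mice. Hoxa6 under the Ern2-/- label counted 35.8, 6.02 and 63.6 when GF, 48.4, 18.9 and 24.1 when COLONIZED and 6.27, 42.2 and 19.3 when CONV, and was called in no comparison.

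Of the other members of paralogs 6 to 9, Hoxb7 had group means of 124 ± 88.5 in GF-WT, 264 ± 47.3 in COLONIZED-WT, 325 ± 262 in CONV-WT, 127 ± 95.4 in GF-Ern2-/-, 308 ± 128 in COLONIZED-Ern2-/- and 487 ± 210.2 in CONV-Ern2-/- (normalized counts, SD, n = 3). Hoxb8 had means of 223 ± 146, 453 ± 63.6, 366 ± 217, 163 ± 125, 485 ± 166 and 528 ± 225 in the same order. Both were lowest in GF. All COLONIZED-WT libraries lay above all GF-WT libraries in both genes without a call, and the CONV-WT and GF-WT libraries overlapped. The HoxA neighbours were less variable. Hoxa7 had means of 370.1 ± 57.6, 401 ± 105, 512 ± 11.2, 408 ± 223, 341 ± 95.5 and 437 ± 259 in the same order, and Hoxa9 of 419 ± 69.8, 339.8 ± 84.8, 406 ± 174, 461 ± 185, 351 ± 158 and 254 ± 203. Neither was called in any comparison.

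For each genotype label, the 6 anterior members of HoxB and HoxD with a mean of at least 10 had their lowest group means in GF mice. Hoxb5 counted 26.9, 129.6 and 142 when GF, 212, 160.1 and 252 when COLONIZED and 64.1, 244 and 420.0 when CONV in WT mice. Hoxb5 under the Ern2-/- label counted 23.9, 48.1 and 152 when GF, 158, 280.0 and 293 when COLONIZED and 321, 338 and 657 when CONV. All CONV-Ern2-/- libraries lay above all GF-Ern2-/- libraries, and Hoxb5 rose between them by 2.55 (log2, SE 0.57, adjusted p = 4.83e-04). Hoxb4 counted 20.7, 70.1 and 81.2 when GF, 174, 128 and 131 when COLONIZED and 34.9, 247 and 1339 when CONV in WT mice. Hoxb4 under the Ern2-/- label counted 17.2, 46.1 and 162 when GF, 103, 222 and 293 when COLONIZED and 235, 624 and 1106 when CONV. It was called in COLONIZED-WT against GF-WT, where it rose by 1.34 (log2, SE 0.41, adjusted p = 0.00708), while its 3 highest values were in CONV-WT replicate 3, CONV-Ern2-/- replicate 3 and CONV-Ern2-/- replicate 2. In these libraries, in that order, the mesenchymal markers Col3a1 (36.5, 49.7 and 42.2) and Des (69.4, 16.6 and 40.0) were also highest, depth was 8198204, 5865619 and 7084267 counts, and the part of markers or depth in Hoxb4 was not tested. Hoxb3 counted 29.2, 224 and 287 when GF, 206, 241 and 269.9 when COLONIZED and 32.1, 279 and 289 when CONV in WT mice. Hoxb3 under the Ern2-/- label counted 48.5, 132 and 144 when GF, 207, 450.2 and 353 when COLONIZED and 306, 199.96 and 246 when CONV. It rose in COLONIZED-Ern2-/- by 1.64 (log2, SE 0.43, adjusted p = 0.00289), and 2250 of its exon bases lie opposite the antisense gene Hoxb3os. Hoxb2, which was not called, had group means of 11.2 ± 9.07 in GF-WT, 31.3 ± 7.92 in COLONIZED-WT, 17.2 ± 15.2 in CONV-WT, 9.94 ± 6.68 in GF-Ern2-/-, 26.6 ± 10.7 in COLONIZED-Ern2-/- and 34.0 ± 16.0 in CONV-Ern2-/-.

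Hoxd3 and Hoxd4 lie at the other end of the HoxD cluster from Hoxd13 and moved against it. Hoxd3 counted 13.8, 14.7 and 18.7 when GF, 78.4, 41.9 and 44.5 when COLONIZED and 12.3, 32.6 and 36.5 when CONV in WT mice. Hoxd3 under the Ern2-/- label counted 2.98, 3.01 and 14.6 when GF, 44.9, 59.4 and 63.2 when COLONIZED and 58.5, 31.1 and 46.9 when CONV. Apart from CONV-WT replicate 1, every GF library was below every library with microbes. It rose by 1.81 in COLONIZED-WT (log2, SE 0.41, adjusted p = 1.37e-04), by 3.06 in COLONIZED-Ern2-/- (SE 0.62, adjusted p = 3.91e-05) and by 2.76 in CONV-Ern2-/- (SE 0.73, adjusted p = 0.00468). Hoxd4 counted 18.4, 63.0 and 63.2 when GF, 194, 170.4 and 164 when COLONIZED and 41.5, 181 and 111 when CONV in WT mice. Hoxd4 under the Ern2-/- label counted 7.46, 6.02 and 100.1 when GF, 155, 195 and 251 when COLONIZED and 192, 109 and 268 when CONV. It rose in COLONIZED-WT by 1.87 (log2, SE 0.38, adjusted p = 1.86e-05). The spans of Hoxd3 and Hoxd4 overlap, and 2225 and 1154 of their exon bases are shared on the same strand with the model Gm28230, so the division of reads between them is uncertain.

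No anterior HoxA gene was called against GF. Hoxa3 counted 432, 326 and 268 when GF, 302, 306 and 244 when COLONIZED and 437, 297 and 257 when CONV in WT mice. Hoxa3 under the Ern2-/- label counted 323, 110.3 and 376 when GF, 287, 294 and 232 when COLONIZED and 112, 171 and 132 when CONV. All CONV-Ern2-/- libraries were below all CONV-WT and all COLONIZED-Ern2-/- libraries. In the order GF, COLONIZED and CONV, first for WT and then for the Ern2-/- label, Hoxa2 had group means of 64.8 ± 7.41, 69.0 ± 22.7, 83.4 ± 26.7, 54.8 ± 43.2, 59.9 ± 8.38 and 44.6 ± 24.0 (normalized counts, SD, n = 3). Hoxa4 had means of 18.8 ± 3.06, 23.0 ± 3.48, 20.1 ± 2.90, 17.7 ± 7.01, 19.9 ± 7.17 and 14.4 ± 2.92, and Hoxa5 of 184 ± 85.0, 165 ± 48.0, 211 ± 49.8, 200.42 ± 157, 142 ± 18.8 and 185 ± 116. Each of these 3 genes was lowest in GF-Ern2-/- replicate 2, and none of them was called in any comparison. That library was the lowest of all 18 for 8 of the 23 members, among them Hoxa2 to Hoxa6.

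**Figure D4:**
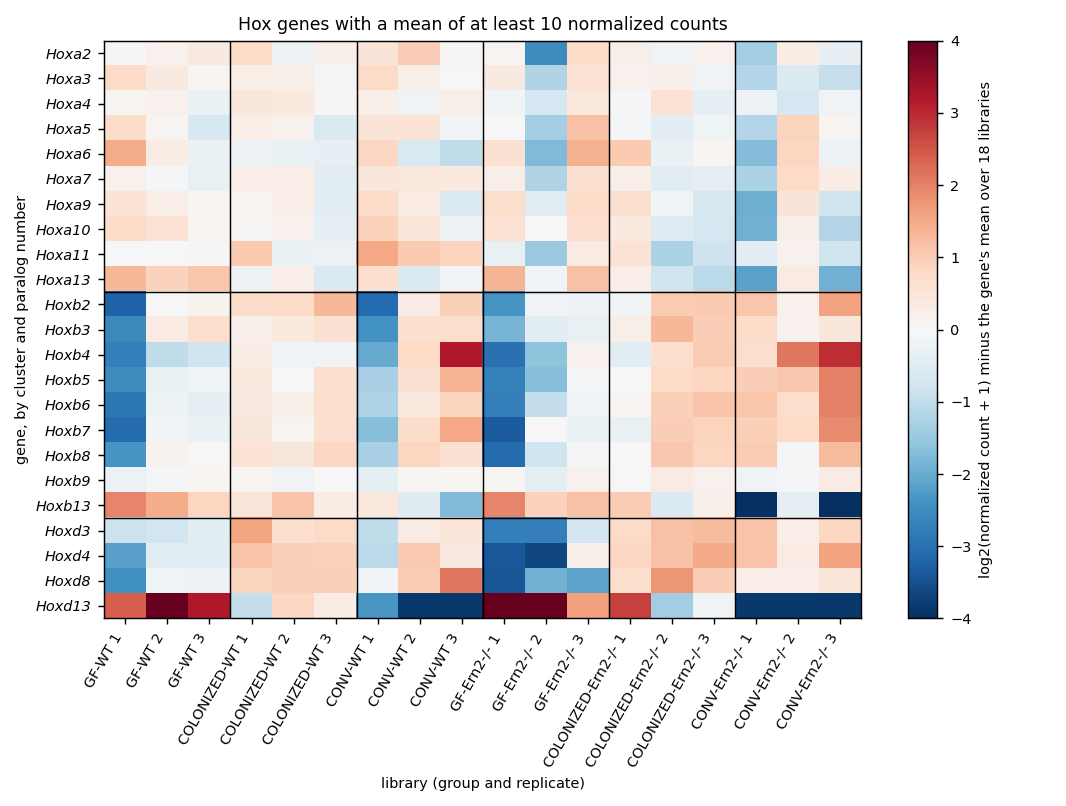
log2(normalized count + 1) minus the mean of the gene over 18 libraries for the 23 Hox genes with a mean of at least 10 (rows, by cluster and paralog number) in each library (columns); colours stop at 4 in either direction. In the GF libraries Hoxb13 and Hoxd13 are mostly high, and Hoxb2 to Hoxb8, Hoxd3, Hoxd4 and Hoxd8 mostly low. CONV-WT replicate 1 has low values of these genes and of Hoxd13 too. The HoxA rows are paler.

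Promoters are shown for 4 called members, a pair that fell in COLONIZED-WT (Hoxa13 and Hoxd13) and a pair that rose (Hoxb4 and Hoxd8), and for Hoxb8, the only Hox window with a match to either motif searched. RefSeq (GRCm38.p6) gave 24 windows for 22 of the 39 genes, each the 250 bases before a gene start, printed 5′ to 3′ along the gene. The motifs were CAATAAA and TCGTAAA, letters bound by posterior Hox proteins such as HOXB13, read on both strands and marked by capitals. They share the letters TAAA but their matches do not overlap here. CAATAAA is found in 4.20% and TCGTAAA in 0.478% of 32851 windows of this length. In Hoxb8 the matches begin 120 bases (CAATAAA, on the other strand) and 176 bases (TCGTAAA) before the start. CG dinucleotides numbered 35 in the Hoxa13 window, 31 in Hoxd13, 14 in Hoxb4, 6 in Hoxd8 and 12 in Hoxb8, with a median of 6 over all windows. The 2 windows of Hoxd11, which also fell, held 2 and 20. The windows lie at chr6:52260881-52261130 (Hoxa13, minus strand), chr2:74667975-74668224 (Hoxd13, plus), chr11:96318017-96318266 (Hoxb4, plus), chr2:74704365-74704614 (Hoxd8, plus) and chr11:96281655-96281904 (Hoxb8, plus).
Hoxa13: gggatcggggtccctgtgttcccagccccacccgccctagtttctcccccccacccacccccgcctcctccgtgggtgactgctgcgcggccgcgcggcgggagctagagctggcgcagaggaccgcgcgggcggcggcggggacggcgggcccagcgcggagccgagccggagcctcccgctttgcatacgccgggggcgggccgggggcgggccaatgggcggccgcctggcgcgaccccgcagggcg
Hoxd13: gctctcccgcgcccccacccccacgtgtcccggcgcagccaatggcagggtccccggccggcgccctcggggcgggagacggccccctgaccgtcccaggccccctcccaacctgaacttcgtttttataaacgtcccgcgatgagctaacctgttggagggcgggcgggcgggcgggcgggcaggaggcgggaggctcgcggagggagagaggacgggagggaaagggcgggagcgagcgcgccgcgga
Hoxb4: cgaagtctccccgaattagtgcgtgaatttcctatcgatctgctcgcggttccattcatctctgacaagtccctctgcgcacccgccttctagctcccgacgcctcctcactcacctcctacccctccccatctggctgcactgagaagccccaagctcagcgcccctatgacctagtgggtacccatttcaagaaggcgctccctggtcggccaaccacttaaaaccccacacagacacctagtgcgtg
Hoxd8: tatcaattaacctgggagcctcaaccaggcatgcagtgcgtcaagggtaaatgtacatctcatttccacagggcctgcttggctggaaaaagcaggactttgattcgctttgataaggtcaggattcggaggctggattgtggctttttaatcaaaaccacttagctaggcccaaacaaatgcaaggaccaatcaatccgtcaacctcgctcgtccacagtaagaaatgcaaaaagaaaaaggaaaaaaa
Hoxb8: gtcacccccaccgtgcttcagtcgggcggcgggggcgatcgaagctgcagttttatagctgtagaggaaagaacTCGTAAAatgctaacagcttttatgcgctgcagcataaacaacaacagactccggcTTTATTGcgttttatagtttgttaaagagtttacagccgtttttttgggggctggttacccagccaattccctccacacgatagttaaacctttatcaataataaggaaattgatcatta

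The response to microbes was compared with GF in each genotype label. Over the 4 comparisons there were 19 calls, 12 higher and 7 lower than in GF. Of the 12 that rose, 11 were of paralogs 3 to 8 in HoxB and HoxD, and all 7 that fell were of paralogs 10 to 13. COLONIZED-WT against GF-WT called 6 of 25 members tested (Hoxb4, Hoxd3, Hoxd4 and Hoxd8 higher, Hoxa13 and Hoxd13 lower), where DESeq2 called 18.3% of all genes. CONV-WT against GF-WT called 4 of 26 (Hoxa11 higher, Hoxb13, Hoxd11 and Hoxd13 lower), where 11.0% of all genes were called. COLONIZED-Ern2-/- against GF-Ern2-/- called 3 of 28 (Hoxb3, Hoxd3 and Hoxd8 higher), where 7.17% of all genes were called. In these 3 comparisons the members' share was near that of all genes. CONV-Ern2-/- against GF-Ern2-/- called 6 of 25 (Hoxb5, Hoxb6, Hoxd3 and Hoxd8 higher, Hoxd11 and Hoxd13 lower), where 4.34% of all genes were called. The comparisons within a genotype label share their GF libraries. In bulk libraries fewer cells of a type and less RNA per cell cannot be told apart, and nothing said that replicates came from separate litters or cages, so p-values measure the spread between these libraries.

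By class, the median fold change (log2) of the 5 members of paralogs 10 to 13 above a mean of 10 was -0.81 in COLONIZED-WT, -1.04 in CONV-WT, -1.05 in COLONIZED-Ern2-/- and -1.75 in CONV-Ern2-/-, each against GF. For the 8 members of paralogs 6 to 9 it was 0.58, 0.58, 0.73 and 0.89 in the same order, and for the 10 members of paralogs 1 to 5 it was 0.74, 0.48, 1.45 and 1.5. Members above 0 numbered 6, 5, 5 and 6 for paralogs 6 to 9 and 8, 9, 9 and 6 for paralogs 1 to 5. These medians mix clusters, and no HoxA gene of paralogs 1 to 9 was called in these comparisons. The median over 12441 genes lay between -0.02 and -0.01 in these comparisons.

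**Figure D5:**
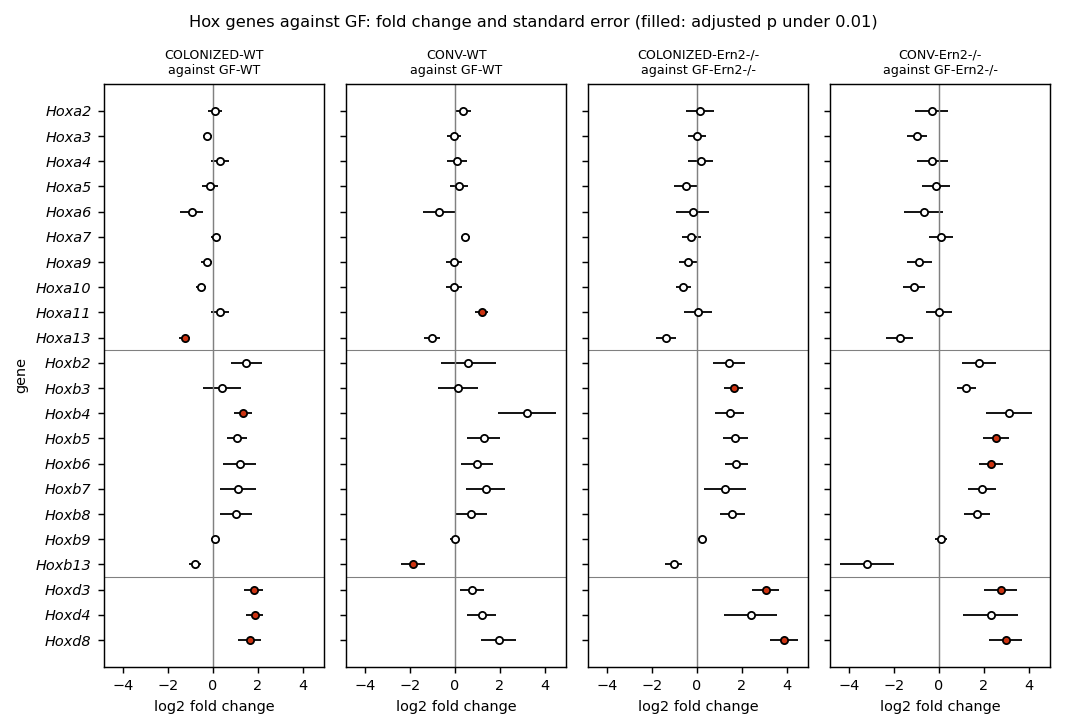
log2 fold change (points) and standard error (bars) of 22 Hox genes in the 4 comparisons against GF, by cluster; filled points passed an adjusted p of 0.01. Hoxd13 is left out because its CONV libraries held 0 to 2 counts. HoxB and HoxD genes below Hoxb9 lie to the right of 0, Hoxa13 and Hoxb13 to the left.

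Leaving out each library in turn, 7 of the 22 calls made over all comparisons held in all 6 fits. They were Hoxd13 in CONV-WT, Hoxa13, Hoxd3, Hoxd4 and Hoxd13 in COLONIZED-WT, and Hoxd3 and Hoxd8 in COLONIZED-Ern2-/-, each against GF. Hoxb5 in CONV-Ern2-/- was lost only without CONV-Ern2-/- replicate 3 (adjusted p up to 0.0568). In the same comparison Hoxb6 was lost without GF-Ern2-/- replicate 2 or CONV-Ern2-/- replicate 3, and Hoxd13 without GF-Ern2-/- replicates 1 or 2. The call of Hoxa11 in CONV-WT against GF-WT held only without CONV-WT replicate 3 (adjusted p 2.22e-04 to 0.0452), and that of Hoxd8 in COLONIZED-WT only without GF-WT replicate 1 (adjusted p 0.00633 to 0.0776). Hoxb13 in CONV-WT was lost without GF-WT replicates 1 or 2 or CONV-WT replicate 2 (adjusted p 1.13e-05 to 0.0602). Hoxb4 in COLONIZED-WT held only without GF-WT replicates 1 or 3, and Hoxb3 in COLONIZED-Ern2-/- only without GF-Ern2-/- replicates 2 or 3 or COLONIZED-Ern2-/- replicate 1. In CONV-Ern2-/-, Hoxd8 held only without GF-Ern2-/- replicates 2 or 3, and Hoxd3 and Hoxd11 only without GF-Ern2-/- replicate 3. Hoxd11 in CONV-WT held only without GF-WT replicate 1 or CONV-WT replicate 3. The quasi-likelihood test of edgeR called 0 Hox genes in these 4 comparisons, with adjusted p of at least 0.0101. At an unadjusted p under 0.05 it had 8 members in COLONIZED-WT, 7 in CONV-WT, 9 in COLONIZED-Ern2-/- and 13 in CONV-Ern2-/-, against 12, 8, 12 and 15 with DESeq2. The shares of all genes with a p that lay under 0.05 were 41.8, 28.7, 26.2 and 19.8% with edgeR and 31.2, 24.9, 20.4 and 15.7% with DESeq2. The edgeR count of 8 of 24 members in COLONIZED-WT was below that share, and 7 of 23 in CONV-WT was close to it. Of all genes edgeR called 4.94%, 0.175%, 0.216% and 0.0325% in that order. With a sex term no member was called in COLONIZED-WT against GF-WT. No GF-WT library had Y-linked counts, and of COLONIZED-WT only replicate 2 lacked them, so that fit rested on this library.

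Between genotype labels, CONV-Ern2-/- against CONV-WT called 2 of 23 members, where 3.03% of all genes were called. Hoxa3 fell by 1.27 (log2, SE 0.33, adjusted p = 0.00454) and Hoxa11 fell by 1.51 (SE 0.41, adjusted p = 0.00788). Leaving out 1 library, Hoxa3 held only without CONV-WT replicate 3 or CONV-Ern2-/- replicate 2 (adjusted p 2.20e-04 to 0.152) and Hoxa11 only without CONV-WT replicate 3 (adjusted p 0.00244 to 0.263). Without CONV-Ern2-/- replicate 2, in which Hoxb13 was at 1542 against 118 and 80.0 in the others, 4 members were called, all lower: Hoxa3, Hoxa10, Hoxa13 and Hoxb13, the last at -3.96 (log2, adjusted p = 4.31e-08). This fit was picked out by those same values and adds no separate evidence. With a sex term 7 were called, 6 of them higher. All CONV-Ern2-/- libraries had Y-linked counts, and of CONV-WT only replicate 1 did. With that term the difference between labels therefore rested on CONV-WT replicate 1, which had the lowest sum of Hoxb2 to Hoxb8 in its group (473). edgeR called 0 members and 0% of all genes. At an unadjusted p under 0.05 it had 2 of 22 members, below the 15.4% of all genes. DESeq2 had 4 of 23 members at that threshold, against 13.6% of all genes. GF-Ern2-/- against GF-WT called 0 of 31 members with DESeq2, where 0.0350% of all genes were called, and 1 member had an unadjusted p under 0.05, as had 1.48% of all genes (edgeR 0 members by either threshold and 1.54%). COLONIZED-Ern2-/- against COLONIZED-WT called 0 of 23, where 1.37% of all genes were called, with 0 members at an unadjusted p under 0.05 against 16.2% of all genes (edgeR 0 members by either threshold and 21.9%). There were 3 calls (Hoxb3, Hoxb4 and Hoxb6, higher) without COLONIZED-Ern2-/- replicate 1.

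Between CONV and COLONIZED mice, CONV-Ern2-/- against COLONIZED-Ern2-/- called 1 of 24 members, where 8.59% of all genes were called. Hoxa3 fell by 0.98 (log2, SE 0.25, adjusted p = 0.00231), and held in 2 of 6 fits that left out a library, those without COLONIZED-Ern2-/- replicate 3 or CONV-Ern2-/- replicate 2 (adjusted p 0.00104 to 0.0483). Without CONV-Ern2-/- replicate 2 Hoxb13 was also called, at -4.68 (adjusted p = 1.49e-25), and Hoxa13. That library was singled out after its high values of both genes were seen. edgeR called 0 members and 0.282% of all genes. At an unadjusted p under 0.05 it had 4 of 23 members, below the 31.4% of all genes. DESeq2 also called position and cell markers there. Of 5 distal-colon genes tested, Scnn1b, Insl5 and Pyy were lower (log2 -1.67, -3.49 and -1.41). Of 8 epithelial genes, Krt20 (log2 1.54) and Vil1 (0.64) were higher. Of 11 mesenchymal genes tested, Col3a1 (3.43) and Myh11 (3.78) were higher, as were Pecam1 (2.83) and Upk1a (1.43). Pcna was lower (-0.79). Only Pyy, Krt20, Vil1 and Pecam1 held in all 6 fits leaving out 1 library. The part of these markers in Hoxa3 was not tested. CONV-WT against COLONIZED-WT called 0 of 24 members, where 0.119% of all genes were called, with 4 members at an unadjusted p under 0.05 against 7.26% of all genes (edgeR 0 members by either threshold and 7.11%).

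Whether the response to microbes differed between genotype labels was tested as an interaction. For CONV against GF 0 of 25 members were called, where 0.177% of all genes were, and for COLONIZED against GF 0 of 35, where 0.0280% were. In each, 1 member had an unadjusted p under 0.05 with DESeq2 and 1 with edgeR, which also called 0. Of all genes 6.65 and 5.76% had such a p with DESeq2 and 7.42 and 7.26% with edgeR. Without CONV-Ern2-/- replicate 2, Hoxb13 was called in the CONV interaction (log2 -3.88, adjusted p = 2.19e-04). That fit was picked out after the high Hoxb13 value of this library was seen. Without GF-Ern2-/- replicate 2 and CONV-WT replicate 3 together, an alternative chosen after seeing the data, 1 member was called, Hoxa3, which was lower.

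Other genes of the Hox system were read from lists. Of 9 TALE cofactors, the PBX, MEIS and PREP proteins that bind DNA with Hox proteins, 7 were tested in each comparison against GF. Pbx3 rose in COLONIZED-WT (log2 0.93, SE 0.25, adjusted p = 0.00198), CONV-WT (1.19, SE 0.30, adjusted p = 0.00112) and COLONIZED-Ern2-/- (0.98, SE 0.28, adjusted p = 0.00792), with 80.7, 69.4 and 49.98 normalized counts in GF-WT, 125, 112 and 141 after colonization and 172, 163 and 121 in CONV-WT. These 3 calls held in 2, 2 and 0 of 6 fits that left out a library, and edgeR called none of them. Meis3 rose in COLONIZED-WT (log2 0.97, SE 0.20, adjusted p = 2.84e-05) and in CONV-Ern2-/- (1.93, SE 0.41, adjusted p = 1.44e-04), with 55.9, 50.1 and 133 in GF-Ern2-/- and 289, 284 and 342 in CONV-Ern2-/-. Of the caudal factors, which act upstream of Hox genes in the gut, Cdx1 and Cdx2 were called in no comparison and Cdx4 had no count. Cdx2 ran from 2212 in GF-WT replicate 1 to 9839 in CONV-Ern2-/- replicate 3, the libraries with the second lowest and the highest sum of Hoxb2 to Hoxb8. Of 18 Polycomb genes, whose complexes keep Hox genes silent, COLONIZED-WT against GF-WT called 2 higher and 3 lower and CONV-WT against GF-WT 1 higher and 1 lower, with Cbx6 higher in both (log2 1.55 and 1.86), where 18.3% and 11.0% of all genes were called. The list held 0 calls in both comparisons of the libraries labelled Ern2-/- with GF, where 7.17% and 4.34% of all genes were called, and these counts are too small to set beside those in WT. Beside the HoxA cluster, Hottip, a noncoding RNA at the Hoxa13 end, fell in COLONIZED-WT (log2 -0.91, SE 0.28, adjusted p = 0.00636), a call that held in 2 of 6 fits that left out a library and had an adjusted p of 0.0501 with edgeR, and the homeobox gene Evx1 rose in CONV-WT (log2 2.36, SE 0.51, adjusted p = 1.22e-04).

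Genes known for position along the colon moved beside the Hox genes, and their part in the result was not tested. Of 6 genes that are higher in distal colon, 4 were lower in COLONIZED-WT and 4 in CONV-WT, and 3 were lower in COLONIZED-Ern2-/- and 3 in CONV-Ern2-/-, each against GF, and 0 were higher, where 18.3, 11.0, 7.17 and 4.34% of all genes were called in that order. Scnn1g, a subunit of the epithelial sodium channel, counted 161, 19.6 and 74.3 in GF-WT, 0.713, 1.47 and 1.59 after colonization and 0, 1.98 and 0 in CONV-WT. The ion pump gene Atp12a counted 8054, 4860.3 and 6963 in GF-WT, 57.04, 452 and 70.6 after colonization and 58.5, 84.9 and 25.6 in CONV-WT. Both were lower in every WT library with microbes than in every GF-WT library. Of the same 6 genes, the hormone genes Pyy and Insl5 had higher group means in COLONIZED than in GF mice, without a call. Pyy had a mean of 486 in GF-WT against 763 in COLONIZED-WT, and of 326 against 519 under the Ern2-/- label. Insl5 had a mean of 405 in GF-WT against 542 in COLONIZED-WT, and of 320.4 against 349 under the Ern2-/- label. The last mean rested on COLONIZED-Ern2-/- replicate 1, with 692, 145 and 210 against 297, 437 and 227 in GF-Ern2-/-. In CONV mice both genes had lower means than in GF, at 300 (Pyy) and 144 (Insl5) in CONV-WT and 196 and 31.2 in CONV-Ern2-/-. Insl5 was called lower in CONV-Ern2-/- against GF-Ern2-/- (log2 -3.37), as it was in all 6 fits that left out a library. Of 3 genes known from proximal colon (Aqp4, Osr2 and Cyp2c55), 0 were called in any comparison by DESeq2. Osr2, a transcription factor singled out, like Cdx2 above, after its values were seen, was lowest in GF-WT replicate 1 (101), GF-Ern2-/- replicate 1 (167) and CONV-WT replicate 1 (186), the same 3 libraries that were lowest for the sum of Hoxb2 to Hoxb8, and highest in CONV-Ern2-/- replicate 3 (1744) and CONV-WT replicate 3 (1678), the 2 highest for that sum. Aqp4 of the same list ran against Osr2, with its lowest values in CONV-WT replicate 3 (1682) and CONV-Ern2-/- replicate 3 (2362) and high ones in GF-Ern2-/- replicate 1 (15157) and CONV-WT replicate 1 (12636). Cyp2c55 gave a mixed picture. Like Osr2 it was lowest in GF-WT replicate 1 (1504) and GF-Ern2-/- replicate 1 (2603), but it was high in GF-Ern2-/- replicate 2 (64594) and not in CONV-WT replicate 3 (15674). CONV-WT replicate 1 had low Scnn1g and Atp12a (0 and 58.5) together with a posterior Hox share of 51.0%, and GF-WT replicate 1 had the highest Hoxb13 and the highest Scnn1g.

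Markers of other cells were present at varied levels. Over 14 mesenchymal genes the summed normalized count was 371 to 445 in GF-WT, 242 to 325 in COLONIZED-WT, 249 to 562 in CONV-WT, 402 to 609 in GF-Ern2-/-, 246 to 339 in COLONIZED-Ern2-/- and 252 to 577 in CONV-Ern2-/-. Pdgfrb, a receptor of pericytes and fibroblasts, was the largest part in 16 of the 18 libraries (76.7 to 535 over all), and Vim in CONV-WT replicate 3 (135) and CONV-Ern2-/- replicate 3 (182). The defining markers Col3a1 and Des were at most 9.27 outside CONV-WT replicate 3, CONV-Ern2-/- replicate 2 and CONV-Ern2-/- replicate 3, where Col3a1 reached 36.5, 42.2 and 49.7. In that order these 3 libraries held 588, 1542 and 80.0 of Hoxb13, and 1339, 624 and 1106 of Hoxb4, its 3 highest values, against at most 293 elsewhere. The prostate gene Pbsn was at 0 in all 18 libraries. Upk1a, a urothelial gene of the same list, stood at 92.8 to 410.1 and was lower in COLONIZED-WT (log2 -1.22) and COLONIZED-Ern2-/- (log2 -1.51) than in GF. Of the immune list, Ptprc ran from 39.2 to 256, and Cd74 from 20.1 to 2458 with its highest values in COLONIZED-WT replicate 2 (2458) and COLONIZED-Ern2-/- replicate 1 (1113). No immune gene was called against GF. Against GF, Pdgfrb fell in 3 of the 4 comparisons. It held in 2 of 6 fits that left out a library in CONV-WT, 4 in CONV-Ern2-/- and 3 in COLONIZED-Ern2-/-. In COLONIZED-WT it was not called, with 232, 258 and 182 against 367, 288 and 363 in GF-WT, where all COLONIZED libraries also lay lower. Col3a1 rose in CONV-Ern2-/-, a call that held in 2 of 6 fits that left out a library. Acta2 (log2 4.08, adjusted p = 0.00411) and Des (log2 4.77, adjusted p = 0.00343) rose in CONV-WT. CONV-WT replicate 3 held 67.6 and 69.4 of them, and the calls held in 1 and 2 of 6 such fits. Of 8 small-intestinal genes, 4 were tested in COLONIZED-WT, 6 in CONV-WT, 5 in COLONIZED-Ern2-/- and 5 in CONV-Ern2-/-, each against GF. Those called were all lower, 2 in COLONIZED-WT and 1 in each of the other 3 comparisons. Of all genes 18.3, 11.0, 7.17 and 4.34% were called in the same order. Apoa1 was called in each, and held in 5, 2, 6 and 5 of 6 fits that left out a library. The endothelial gene Pecam1 fell in COLONIZED-Ern2-/- (log2 -2.24, SE 0.53, adjusted p = 0.000716). Of 8 crypt stem and proliferation genes, 7 were tested in each comparison with GF. Called higher were Mki67 (log2 0.93), Top2a (log2 1.02) and Pcna (log2 0.67) in COLONIZED-WT, Top2a in CONV-WT (log2 1.11), and Mki67 (log2 1.36) and Top2a (log2 1.12) in COLONIZED-Ern2-/-, all genes of dividing cells, and 0 were lower. None was called in CONV-Ern2-/- against GF-Ern2-/-. DESeq2 called 18.3% of all genes in COLONIZED-WT, 11.0% in CONV-WT, 7.17% in COLONIZED-Ern2-/- and 4.34% in CONV-Ern2-/-, each against GF. The 1 of 7 in CONV-WT and the 0 of 7 in CONV-Ern2-/- lay near these shares. Between the genotype labels in CONV mice, where Hox genes were also called, Axin2 was lower (log2 -1.13) and Olfm4 higher (log2 3.19). These calls held in 2 and 1 of 6 fits that left out a library, and edgeR called neither (adjusted p 0.0919 and 0.0617). The part of these genes in the Hox values was not tested.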

How the data were processed

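The authors isolated colon crypts with EDTA and strainers, prepared stranded libraries from mRNA for single-end sequencing (75 cycles) and processed the reads with VIPER and STAR. Per the labels and the study's methods the deposited values are raw counts per gene symbol, 1 column per sample, not pooled. The submitters' processing notes name STAR, DESeq2 and mm10. Versions, annotation and strand setting are not given in the sources used here, so reads of overlapping genes may be misassigned. The number in a column's name gave its sample through the labels.

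Each of 9 comparisons was fitted over all genes on its own 6 libraries with DESeq2 1.42.0 in R 4.3.3 (Wald test, default filters, no shrinkage), and 2 interactions on 12 libraries. Calls needed an adjusted p (Benjamini-Hochberg) under 0.01, as in the study's methods. Depth ran from 5865619 to 23154481 counts per library, and 3 counts over a group was the floor used for genes at 0. Alternatives were edgeR 4.0.16 (quasi-likelihood), TMM, a filter of 10 counts in 3 libraries, 1 fit of all 18 libraries, the replicate number as a block, a sex term and leaving out each library. The fits were tested on simulated data, where DESeq2 made more false calls than its threshold implies and edgeR few. Members and gene lists were chosen with earlier results of these data known. Values per library are given for members called in any comparison and for members of paralogs 6 and 13 with a mean of at least 10 normalized counts, group means or ranges for the rest. Genes of other lists are given by counts and sums, and single ones were named where called beside a called Hox gene or as defining markers. Some genes without such a call were named outside this rule, among them Cdx1, Cdx2, Osr2, Aqp4, Ptprc, Cd74 and Vim. Coordinates are from GENCODE vM21 (GRCm38) and RefSeq.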

Additional observations from a re-analysis of the deposited data

How the results depend on the processing

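Size factors from TMM kept all 22 calls and their directions, and the low-count filter 19 of the 20 it could test. TMM gave 2 calls instead of 1 in CONV-Ern2-/- against COLONIZED-Ern2-/- and 4 instead of 3 in COLONIZED-Ern2-/- against GF-Ern2-/-. edgeR gave 0 calls in each of the 6 comparisons with calls, and 20 of 20 tested calls lost the threshold with their direction kept. Hoxd11 was not tested there. In 1 fit of all 18 libraries 10 of 22 calls held, and the count was 1 in CONV-Ern2-/- against CONV-WT and 1 in COLONIZED-WT against GF-WT. With a sex term 12 held, and counts were 7 in CONV-Ern2-/- against CONV-WT, 0 in COLONIZED-WT against GF-WT, 7 in COLONIZED-Ern2-/- against GF-Ern2-/- and 2 in CONV-Ern2-/- against COLONIZED-Ern2-/-. The first of these rested on CONV-WT replicate 1 and the second on COLONIZED-WT replicate 2, the only libraries of their groups with the sex pattern of the other group. No called direction was reversed in any alternative. The cause of these changes was not tested.

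The replicate numbers shared by the groups did not pair the libraries throughout: 21 of 45 correlations of deviations were over 0.1 (-0.44 to 0.63), and 8 of 18 libraries correlated best with their own number. Among the replicate 1 libraries of the groups other than CONV-Ern2-/-, however, all correlations were over 0.1 (0.145 to 0.633). In each of these groups except COLONIZED-WT, replicate 1 also had the lowest sum of Hoxb2 to Hoxb8. With the replicate block 14 of 22 calls held, and counts were 0 in CONV-Ern2-/- against CONV-WT, 8 in CONV-WT against GF-WT and 12 in COLONIZED-Ern2-/- against GF-Ern2-/-.

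Leaving out 1 library, counts ran from 0 to 4 in CONV-Ern2-/- against CONV-WT, 0 to 3 in COLONIZED-Ern2-/- against COLONIZED-WT, 1 to 4 in CONV-WT against GF-WT, 4 to 7 in COLONIZED-WT against GF-WT, 1 to 9 in CONV-Ern2-/- against GF-Ern2-/-, 2 to 8 in COLONIZED-Ern2-/- against GF-Ern2-/-, 0 to 3 in CONV-Ern2-/- against COLONIZED-Ern2-/- and 0 to 1 in the CONV interaction. The CONV interaction had 1 call without GF-Ern2-/- replicate 2 and CONV-WT replicate 3 together, chosen after seeing the data.

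Counting paralog 9 as posterior gave shares of 81.3% in GF-WT, 65.6% in COLONIZED-WT, 56.9% in CONV-WT, 82.8% in GF-Ern2-/-, 60.8% in COLONIZED-Ern2-/- and 40.6% in CONV-Ern2-/-. Without Hoxb13 they were 24.3%, 11.6%, 15.4%, 24.9%, 9.88% and 6.24% in that order, so COLONIZED-WT then lay below CONV-WT. Weighting genes equally, the mean log2(normalized count + 1) of posterior minus other members was 2.24, 0.26, -0.14, 2.49, -0.08 and -1.79. Under all 3 of these definitions CONV-WT replicate 1 lay above at least 1 GF library, with 1.39 against 1.35 in GF-Ern2-/- replicate 3 under equal weights. Leaving out 1 library moved the main share to 56.7 to 66.7% in GF-WT, 38.0 to 45.2% in COLONIZED-WT, 21.3 to 39.4% in CONV-WT, 57.1 to 67.5% in GF-Ern2-/-, 26.5 to 40.8% in COLONIZED-Ern2-/- and 4.87 to 16.9% in CONV-Ern2-/-.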
